A study of Mus musculus with 6 samples.

Results

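Aerocytes are the wide, thin capillary endothelial cells of the lung alveolus, through which most gas exchange takes place. They share the capillary bed with general capillary cells, which are known to renew the endothelium, and both types are known to become distinct around birth. The 10 genes described here, Car4, Tbx2, Fibin, Prx, Emp2, Sirpa, Chst1, Clec1a, Cyp4b1 and Kitl, are used as markers of aerocytes. They were taken by symbol from a fixed list, and all 10 were found among the 24951 genes of the deposited counts.

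Lung endothelial cells of mouse pups, taken on postnatal day 5, were profiled by RNA sequencing in 3 libraries of control and 3 of mutant animals, numbered here as in their titles. All pups carried floxed alleles of Smad4, which encodes the SMAD protein shared by the BMP and TGF-beta pathways. The mutants also carried Cdh5-CreERT2, an inducible Cre recombinase driven from an endothelial cadherin promoter, while the controls, labelled wildtype, had no Cre, so Cre alone has no control of its own. The labels give neither the inducing agent nor the time of deletion. Cells were pulled from digested lungs with CD31 antibody on magnetic beads, and the study's title concerns retinoic acid signaling and arteriovenous malformations of the lung. The comparison asks how each marker differs between mutant and control cells. Smad4 itself stood at 182 ± 5.74 CPM, which are counts scaled by library size, in controls and 85.3 ± 11.1 CPM in mutants (SD, n = 3 each), 2.13-fold lower.

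In the mutant libraries 3 of the 10 aerocyte markers fell, and these were Fibin, Clec1a and Tbx2. Fibin, which encodes a secreted protein, was 1.77-fold lower, Clec1a, a C-type lectin-like receptor gene, 1.51-fold lower and Tbx2, a T-box transcription factor gene, 1.42-fold lower. Car4 and Prx, which are among the most used aerocyte markers, stood at overlapping levels in both groups. A gene was called where its Benjamini-Hochberg adjusted p over all 14934 tested genes was under 0.05 in edgeR's quasi-likelihood test. By that rule 0 members rose, also in DESeq2 and limma-voom, and 0 had a higher level at an unadjusted p under 0.05. All 10 passed the filter on low counts.

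Among all genes tested 3.27% were called, with 1.34% lower and 1.93% higher, so that 3 of 10 lower lies above the share of all genes. Among the 8161 genes at least as abundant as the least abundant member, Fibin, 1.96% were called lower. The fold change was below 0 for 8 of the 10 markers, against 50.5% of all genes. In 6 markers every mutant library lay below every control library, which was so for 9.04% of all genes. An unadjusted p under 0.05 was found for 5 markers, all lower, and for 14% of all genes. The median log2 fold change was -0.25 over the members and -0.0024 over all genes. The markers were listed with earlier results known, so these counts describe the list and carry no test. In bulk RNA, fewer aerocytes and less RNA of a gene per aerocyte cannot be told apart.

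**Figure D1:**
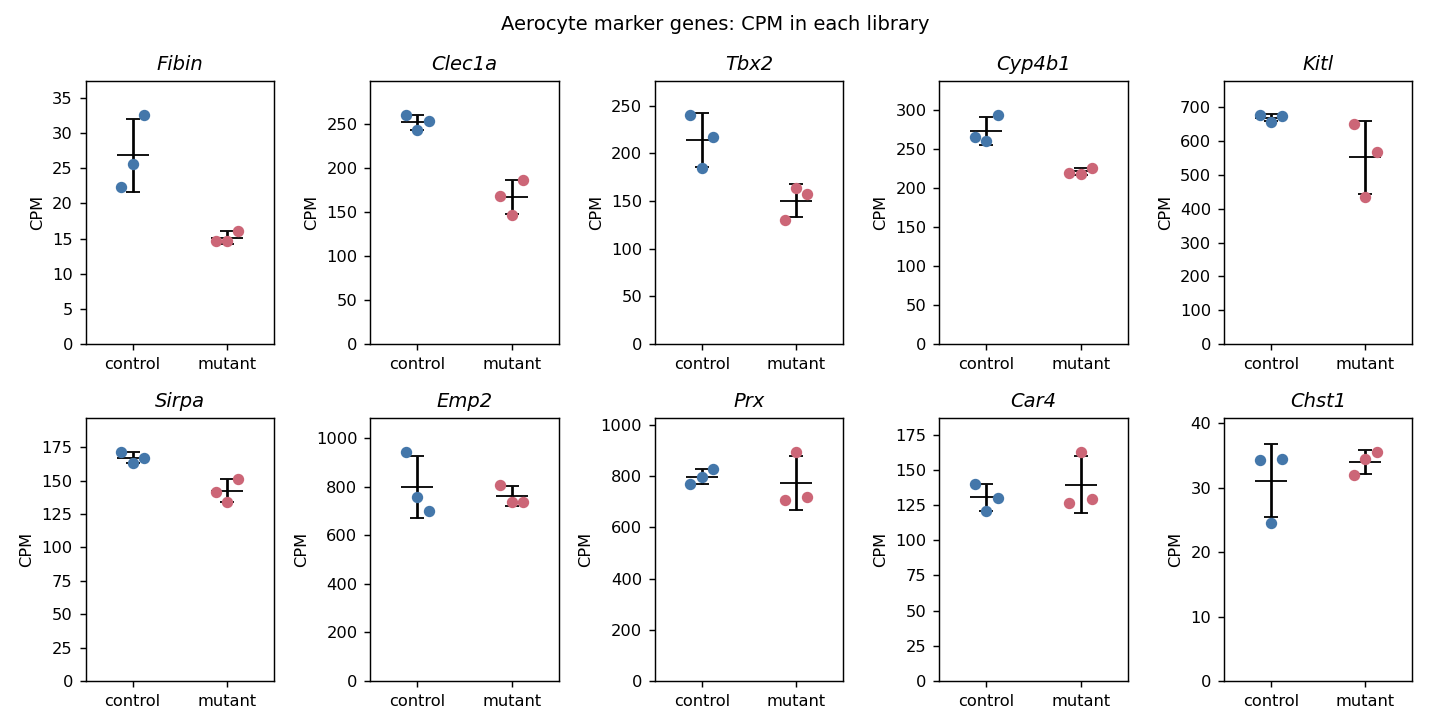
CPM of the 10 aerocyte markers (vertical axes from 0) in the 3 control and 3 mutant libraries, 1 point per library, with the mean as a horizontal line and the SD as bars. Panels run from the lowest to the highest fold change; from Fibin to Sirpa the groups do not overlap, and from Emp2 to Chst1 they do.

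The promoter tables of RefSeq on GRCm38.p6 matched 7 of the 10 members; Clec1a, Sirpa and Tbx2 were not matched. Fibin was the only member called that had an entry. It is shown with Cyp4b1, whose profile over the libraries was the most like that of Fibin among the members, and with Car4, whose level did not pass the test. Each is printed 5′ to 3′ on the gene's strand, only as far as the first base of an annotated exon and for at most 250 bases. This leaves 60 bases for Fibin, 248 for Cyp4b1 and 250, the limit, for Car4. Capitals mark the core of the SMAD-binding element, CAGAC or its reverse complement GTCTG. The stretches are chr2:110363184-110363243 on the minus strand, chr4:115647724-115647971 on the minus strand and chr11:84957504-84957753 on the plus strand.
Fibin: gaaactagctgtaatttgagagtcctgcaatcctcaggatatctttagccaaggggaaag
Cyp4b1: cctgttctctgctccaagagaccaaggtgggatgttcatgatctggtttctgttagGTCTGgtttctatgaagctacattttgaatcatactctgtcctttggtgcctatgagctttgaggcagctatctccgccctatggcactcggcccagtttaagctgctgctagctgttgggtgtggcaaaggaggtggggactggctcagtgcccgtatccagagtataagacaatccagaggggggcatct
Car4: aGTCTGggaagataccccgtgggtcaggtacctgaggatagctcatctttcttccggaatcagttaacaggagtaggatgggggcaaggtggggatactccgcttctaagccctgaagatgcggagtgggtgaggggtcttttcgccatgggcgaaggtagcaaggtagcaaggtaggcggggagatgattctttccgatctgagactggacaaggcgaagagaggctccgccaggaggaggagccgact

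In the full windows of 300 bases, on both strands, CAGAC occurred in 5 of the 7 members and in 49.6% of all 32851 promoters. Those 5 were Car4, Chst1, Cyp4b1, Kitl and Prx, and Prx held 4 matches. The window of Fibin held 0, and so did that of Emp2. All but 60 bases of the Fibin window lie in its annotated exon, so it covers little sequence upstream of the gene. The palindrome GTCTAGAC, which does not contain CAGAC, occurred in 0 of the 7 and in 0.213% of all promoters. The GC-rich element GGCGCC occurred in Emp2 alone of the 7 and in 11.9% of all promoters. These are matches of letters in a window and no measure of SMAD4 binding.

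Tbx2 (ENSMUSG00000000093.6) is on the plus strand of chromosome 11 (GRCm38) from 85832551 to 85841948. It encodes a T-box factor that mostly acts as a repressor, and it is the only transcription factor of the list. The level of Tbx2 was 239.7, 184 and 218 CPM in controls 1, 2 and 3, and mutants 1, 2 and 3 had 130.5, 163 and 157 CPM. The groups did not overlap, with mutant replicate 1 the lowest and control replicate 2 the closest control. On the log2 scale Tbx2 changed by -0.51, with an SE of 0.12 and a 95% interval from -0.77 to -0.24 (edgeR adjusted p = 0.0483). This call was kept only without control replicate 2 among the 6 fits that left out a library, and the adjusted p rose to 0.157 without mutant replicate 1. It also ended in limma-voom (adjusted p = 0.0553), with sex as a covariate (0.0732) and with the replicate number as a block (0.0870).

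By Xist and Y-linked transcripts, control replicate 1 and mutant replicate 1 came from male pups and the other 4 libraries from female pups. For Tbx2 the log2 difference of mutant from control was -0.88 in the male pair, which has no replicate, and -0.33 between the means of the female libraries. Fibin differed by -0.61 in the male pair and by -0.92 in the female libraries. Clec1a differed by -0.63 and -0.57. In the 4 female libraries alone the adjusted p was 0.247 for Tbx2, 0.0222 for Fibin and 0.0519 for Clec1a in edgeR. Whether the sexes differ in any of these was not tested.

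Tbx3, the closest relative of Tbx2, was singled out after its values were seen. Controls 1, 2 and 3 had 230.4, 183 and 225 CPM of Tbx3, and mutants 1, 2 and 3 had 158, 140.2 and 181 CPM. The groups did not overlap, and the log2 fold change of -0.41 (SE 0.12) did not pass the test (adjusted p = 0.113). Tbx2 is also known from lung mesenchyme. The summed level of 10 fibroblast markers overlapped between the groups, at 940.2 to 1425 CPM in controls and 1096 to 1693 CPM in mutants. The part of these cells in the level of Tbx2 was not tested.

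Fibin and Kitl encode secreted or shed proteins. Fibin (ENSMUSG00000074971.4), named for a role in fin bud initiation, is a gene of 1 exon on the minus strand of chromosome 2, from 110360917 to 110363183. Fibin was at 22.4, 25.6 and 32.5 CPM in controls 1, 2 and 3, from 480, 360 and 674 reads. Mutants 1, 2 and 3 had 14.7, 14.6 and 16.1 CPM, from 267, 233 and 331 reads. The mutants lay close together and all below the lowest control, while the controls were spread more widely. Fibin had the lowest fold change of the list, -0.83 on the log2 scale with an SE of 0.15 and an interval from -1.16 to -0.49 (adjusted p = 0.0150). It no longer passed when mutant replicate 1 was left out (adjusted p = 0.0520), nor without mutant replicate 2 (0.0963).

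Kitl (ENSMUSG00000019966.18) encodes stem cell factor, the ligand of the receptor tyrosine kinase Kit, and is on the plus strand of chromosome 10, from 100015630 to 100100416. Aerocytes are known to make the ligand and general capillary cells the receptor. Kitl was at 676, 657 and 674 CPM in controls 1, 2 and 3, and mutants 1, 2 and 3 had 651, 436 and 568 CPM. The groups did not overlap, but mutant replicate 1 was near the controls and mutant replicate 2 far below them. Kitl had a log2 fold change of -0.28, an SE of 0.13 and an interval from -0.57 to 0.015 (adjusted p = 0.389). Without mutant replicate 2 it was -0.13, and it did not pass in any fit run. For the receptor gene Kit, controls 1, 2 and 3 had 553, 714 and 588 CPM and mutants 1, 2 and 3 had 515, 428 and 513 CPM. Receptor and ligand were thus both lowest in mutant replicate 2, and the change of Kit did not pass the test (log2 fold change -0.35, SE 0.12, adjusted p = 0.178).

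Clec1a and Sirpa encode surface receptors, the former lectin-like and the latter of the immunoglobulin kind. Clec1a (ENSMUSG00000033082.10), a C-type lectin-like receptor gene expressed by endothelial and myeloid cells, is on the minus strand of chromosome 6, from 129424772 to 129452000. Controls 1, 2 and 3 had 259, 242 and 253 CPM of Clec1a, and mutants 1, 2 and 3 had 168, 147 and 186 CPM. The gap between the groups was wide, from 186 CPM in the highest mutant to 242 CPM in the lowest control. Clec1a had the smallest p of the list, at a log2 fold change of -0.59 (SE 0.10) with an interval from -0.81 to -0.37 (adjusted p = 0.00869). It was the only member called in all 6 fits that left out a library, with adjusted p up to 0.0394.

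Sirpa (ENSMUSG00000037902.18), the inhibitory receptor for CD47, is on the plus strand of chromosome 2, from 129592835 to 129632228. Sirpa was at 171, 163 and 167 CPM in controls 1, 2 and 3, and mutants 1, 2 and 3 had 142, 134 and 151 CPM. The groups did not overlap, and both were tight. The fold change was -0.23 on the log2 scale (SE 0.080), with an interval from -0.41 to -0.054 before adjustment, which did not pass over all genes (adjusted p = 0.199). Sirpa has relatives of similar sequence in the Sirpb1 family, between which reads can be split, so its level is uncertain in that respect. Sirpb1a stood at 1.27 ± 0.535 CPM in controls. Macrophages are also known to express Sirpa and Clec1a, and the summed level of 12 macrophage and monocyte markers overlapped between the groups, at 920.2 to 1113 CPM in controls and 919 to 989 CPM in mutants. Cd47, the gene of the ligand, was singled out after its values were seen, with 94.0 ± 7.95 CPM in controls and 110.2 ± 4.98 CPM in mutants (adjusted p = 0.284).

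Prx and Emp2 encode membrane-associated proteins. Prx (ENSMUSG00000053198.13) encodes periaxin, a scaffold protein of the cell cortex known from Schwann cells, and is on the plus strand of chromosome 7, from 27499324 to 27520214. Controls 1, 2 and 3 had 771, 795 and 829.5 CPM of Prx, and mutants 1, 2 and 3 had 707, 894 and 721 CPM. The mutants lay on both sides of the controls. Prx had a log2 fold change of -0.046 (SE 0.10) and an interval from -0.27 to 0.18 (adjusted p = 0.887). The antisense gene Gm15541, on the opposite strand, covers 5.38% of the exon length of Prx, and without strand its reads cannot be told apart from those of Prx.

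Emp2 (ENSMUSG00000022505.9), a tetraspan protein gene that acts on integrins and caveolae, is on the minus strand of chromosome 16, from 10281749 to 10313968. Emp2 was at 944, 759 and 699 CPM in controls 1, 2 and 3, and mutants 1, 2 and 3 had 808, 739 and 739 CPM. The groups overlapped, and control replicate 1 was the highest library. The fold change was -0.072 on the log2 scale (SE 0.11), with an interval from -0.32 to 0.18 (adjusted p = 0.827), and it turned to 0.063 without control replicate 1. Alveolar type 1 epithelial cells are known to express Emp2 strongly. The summed level of 8 of their markers was 2567, 2007 and 1546 CPM for controls 1, 2 and 3, the same order as for Emp2. For mutants 1, 2 and 3 it was 2001, 2075 and 1604 CPM. There the order differed, with the sum highest in mutant replicate 2 and Emp2 highest in mutant replicate 1. The part of these cells in the level of Emp2 was not tested. The caveolin gene Cav1 stood at 1113 ± 9.62 CPM in controls and 924 ± 91.6 CPM in mutants (adjusted p = 0.180), with no overlap.

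Car4, Cyp4b1 and Chst1 encode enzymes. Car4 (ENSMUSG00000000805.18) encodes a carbonic anhydrase anchored to the outer face of the capillary membrane, which interconverts CO2 and bicarbonate, and is on the plus strand of chromosome 11, from 84957786 to 84966044. Controls 1, 2 and 3 had 140.3, 121 and 130.2 CPM of Car4, and mutants 1, 2 and 3 had 126, 163 and 129 CPM. Mutant replicate 2 was the highest library, and the other mutants lay within the controls. Car4 had a log2 fold change of 0.094 (SE 0.11) and an interval from -0.15 to 0.34 (adjusted p = 0.763), and without mutant replicate 2 it was -0.029. The interval of Car4 did not overlap that of Fibin, from -1.16 to -0.49. Fibin was set beside it as the lowest fold change of the list, and whether these genes differ in their change was not tested.

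Cyp4b1 (ENSMUSG00000028713.17), a lung cytochrome P450 gene, is on the minus strand of chromosome 4, from 115624725 to 115647723. Cyp4b1 was at 266, 260.3 and 293 CPM in controls 1, 2 and 3, and mutants 1, 2 and 3 had 219, 218 and 226 CPM. The groups did not overlap, and the mutants lay within a narrow range. The fold change was -0.30 on the log2 scale (SE 0.081), with an interval from -0.48 to -0.12 before adjustment (edgeR adjusted p = 0.0834), while DESeq2 called it (adjusted p = 0.0362). Airway epithelium is also known to express Cyp4b1, and the summed level of 8 airway markers overlapped between groups, at 603 to 785 CPM in controls and 634 to 722 CPM in mutants.

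Chst1 (ENSMUSG00000027221.5), a sulfotransferase gene that acts on keratan sulfate chains, is on the plus strand of chromosome 2, from 92599707 to 92615250. Controls 1, 2 and 3 had 34.2, 24.6 and 34.5 CPM of Chst1, and mutants 1, 2 and 3 had 32.0, 34.5 and 35.6 CPM. Only control replicate 2 stood apart, below the rest. Chst1 had a log2 fold change of 0.13 (SE 0.14) and an interval from -0.18 to 0.43 (adjusted p = 0.738), and it was -0.015 without control replicate 2. Chst7, a relative that acts on other glycosaminoglycans, rose, with 25.4 ± 3.64 CPM in controls and 39.1 ± 3.86 CPM in mutants (adjusted p = 0.0299, at a log2 fold change of 0.62). The call of Chst7 was lost without control replicate 2 and without mutant replicate 1 or 2, with an adjusted p of up to 0.160.

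**Figure D2:**
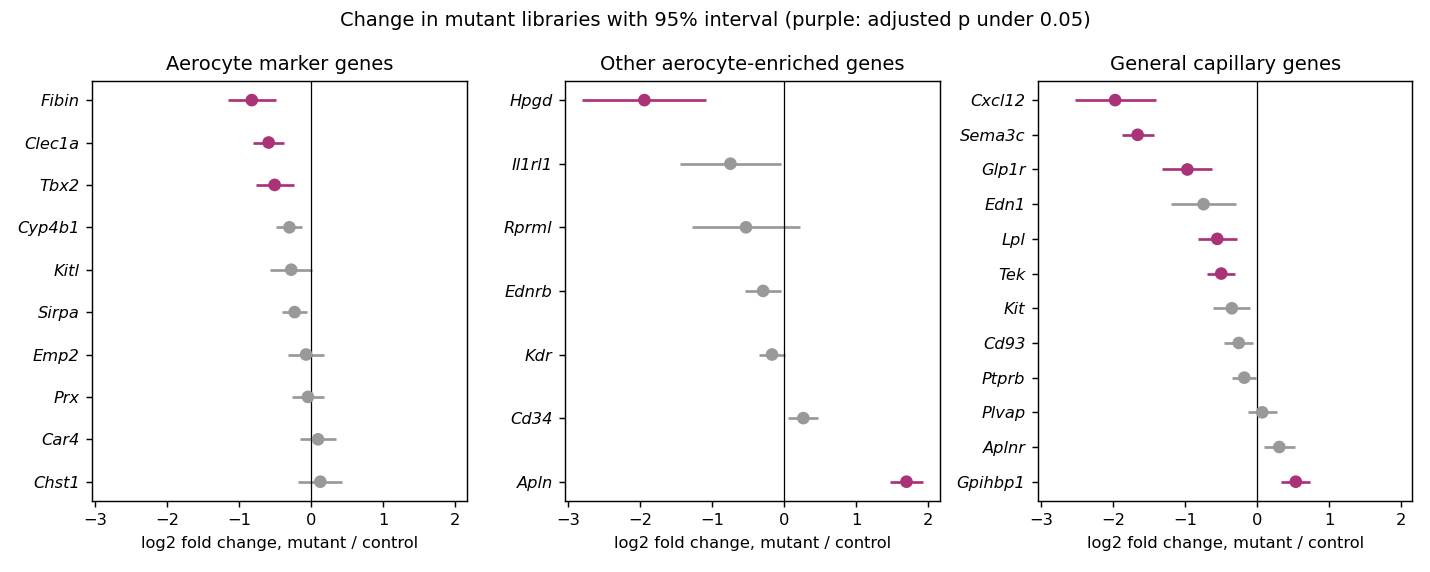
Log2 fold change of mutant over control (horizontal axis) with its 95% interval from edgeR, for the 10 aerocyte markers, 7 other aerocyte-enriched genes and 12 general capillary genes; purple marks an adjusted p under 0.05. Among the aerocyte markers Fibin, Clec1a and Tbx2 lie to the left, and the intervals of Kitl, Emp2, Prx, Car4 and Chst1 include 0.

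Levels of different genes were compared as RPKM, CPM per kilobase of annotated exon. In controls Prx was the highest, with 143 ± 5.25 RPKM, followed by Cyp4b1 with 121 ± 7.79, Kitl with 113 ± 1.73, Emp2 with 92.6 ± 14.7 and Car4 with 66.4 ± 4.89 RPKM (SD, n = 3). Tbx2 stood at 59.0 ± 7.70 RPKM, Clec1a at 48.5 ± 1.67, Sirpa at 34.0 ± 0.822, Fibin at 11.8 ± 2.28 and Chst1 at 11.6 ± 2.11 RPKM. Car4 and Tbx2 overlapped in controls, as did Fibin and Chst1, and the other neighbours in this order did not. The most abundant and the least abundant member thus differed by about an order of magnitude. In mutants the first 8 kept their places by mean RPKM, with Tbx2 at 41.5 ± 4.83 RPKM against 70.9 ± 10.2 RPKM for Car4. Fibin, at 6.68 ± 0.383 RPKM, came below Chst1, at 12.7 ± 0.682 RPKM, and their mutant libraries did not overlap.

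**Figure D3:**
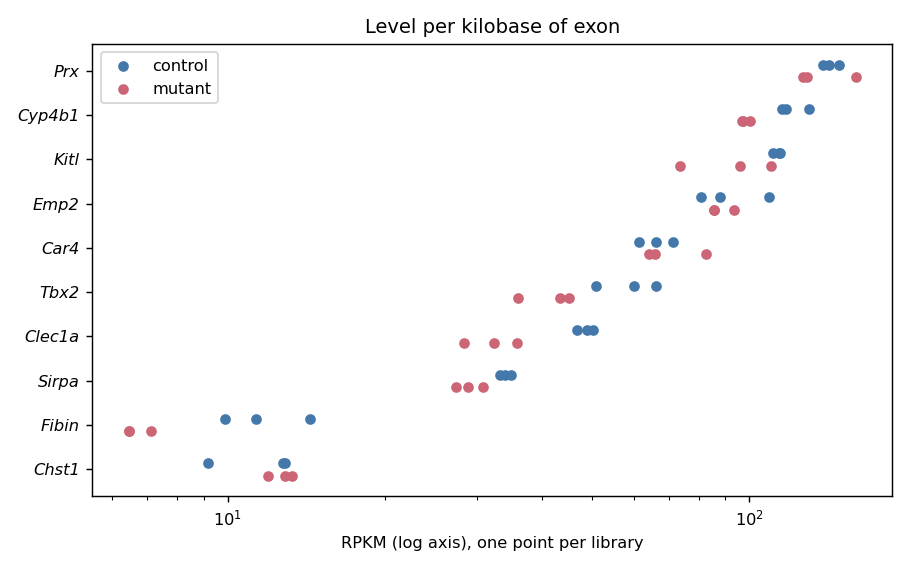
RPKM of each member (log axis) in the 3 control and 3 mutant libraries, 1 point per library, ordered by the control mean. Levels run from 143 RPKM for Prx to 11.6 RPKM for Chst1 in controls, and Fibin lies below Chst1 in the mutants.

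The members did not vary as a single unit over the 6 libraries. The highest Pearson correlations of log2 CPM were 0.99 between Sirpa and Clec1a and 0.98 between Fibin and Cyp4b1. After the group means were taken out, Sirpa and Clec1a still had a correlation of 0.98 and Fibin and Cyp4b1 of 0.87, while Fibin and Clec1a had 0.18 and Tbx2 and Clec1a 0.055. With the group means taken out, Prx and Kitl had a correlation of -0.93, and Car4 and Kitl of -0.82. These values came mainly from the mutants, where the SD of Kitl was 19.7% of its mean, against 1.53% in controls. In controls Car4 and Kitl did not move oppositely, as both were highest in replicate 1 and lowest in replicate 2. In mutant replicate 2, Car4 and Prx were at their highest and Kitl, Clec1a and Sirpa at their lowest. Each value rests on 6 libraries and is a description. The correlations of log2 CPM include the group difference, and those with the group means taken out do not.

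Among 11541 other genes of at least 2 on the mean log2 CPM scale, the profiles most like that of Clec1a were those of Tpra1, Amigo2 and Calcrl, with Pearson correlations of 0.997, 0.996 and 0.995 over the 6 libraries. Of these, Calcrl, the receptor subunit gene for adrenomedullin, had mean levels of 1644 CPM in controls and 699 CPM in mutants and fell (log2 fold change -1.23, edgeR adjusted p = 0.0270). That call was lost without control replicate 1, 2 or 3 and without mutant replicate 1, with an adjusted p of up to 0.113. Amigo2 also fell, from 37.0 to 20.8 CPM, by 0.83 on the log2 scale (adjusted p = 0.00812). Most like Fibin were Mtmr7, Dennd2c and Xpo4, with correlations of 0.995, 0.993 and 0.991. Most like Tbx2 were Kifc3, Ifitm10 and Tcp11l1, with 0.988, 0.985 and 0.983. None of these 6 passed the test of mutant against control, with adjusted p from 0.0671 to 0.418 in edgeR. The correlations include the group difference. For each called member they were picked as the highest among 11541 genes over 6 libraries, and they carry no test.

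A further 8 genes known as enriched in aerocytes were listed, and 7 passed the filter on low counts, all but Sostdc1. Of the 7, 1 rose, 1 fell and 5 did not pass, with a median log2 fold change of -0.29. Apln, the ligand gene of the apelin receptor, rose from 212 ± 21.0 to 687 ± 48.4 CPM, a call that held when any single library was dropped. Hpgd, the prostaglandin-degrading enzyme gene, fell from 449.7 ± 56.4 to 117 ± 56.7 CPM. The call of Hpgd was lost without control replicate 1, 2 or 3 and without mutant replicate 1, with an adjusted p of up to 0.210. Ednrb, the endothelin B receptor gene by which aerocytes are often identified, stood at 245, 194 and 254 CPM in controls 1, 2 and 3 and at 189, 176 and 201 CPM in mutants 1, 2 and 3 (log2 fold change -0.29, SE 0.11, adjusted p = 0.253), and the groups overlapped. Kdr stood at 1454 ± 117 and 1294 ± 26.3 CPM and Cd34 at 783 ± 70.8 and 942 ± 64.3 CPM, with adjusted p of 0.415 and 0.208.

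Of 12 general capillary genes, 5 fell, 1 rose and 6 did not pass, with a median log2 fold change of -0.42. Those that fell were Cxcl12, Sema3c, Glp1r, Lpl and Tek, and Gpihbp1 rose. Sema3c and Glp1r were called whichever single library was dropped. The call of Lpl was lost in 5 of the 6 fits with 1 library dropped, all but that without mutant replicate 1, that of Tek without control replicate 3 or mutant replicate 2, that of Gpihbp1 without control replicate 2 or mutant replicate 2, and that of Cxcl12 without control replicate 1 (adjusted p = 0.0501). The fold changes of the list ran from -1.97 for Cxcl12 to 0.54 for Gpihbp1, against -0.83 to 0.13 for the 10 aerocyte markers. An unadjusted p under 0.05 in edgeR was found for 11 of the 12 general capillary genes and for 5 of the 10 aerocyte markers. Whether the lists differ was not tested.

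Of 13 genes of binding partners and effectors of the member proteins, 0 were called by edgeR, DESeq2 or limma-voom, 4 had an unadjusted p under 0.05 in edgeR, and the median log2 fold change was -0.085. Of 37 relatives of the members, 32 were tested, and Chst7 was the only one called by edgeR, while DESeq2 called 4. The carbonic anhydrase gene Car2 stood at 151 ± 12.4 and 166 ± 6.60 CPM (adjusted p = 0.530), and Emp1, the most abundant relative in controls after Ahnak, at 952 ± 58.7 and 1074 ± 95.7 CPM (adjusted p = 0.445).

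Endothelial markers were abundant in each library, with a summed level of 14 markers of 9861 to 10868 CPM in controls and 10769.8 to 11285 CPM in mutants. Cdh5, the most abundant of them, stood at 2185 ± 112 and 2438 ± 69.6 CPM. RNA of other cell types was present, with alveolar type 2 markers at 1909 to 4063 CPM in controls and 2719.5 to 2931 CPM in mutants, of which Sftpc was the highest. For the 9 lists plotted, lymphocyte markers were the only ones whose groups did not overlap, at 159.6 to 177 CPM in controls and 192 to 251 CPM in mutants. Within that list Ms4a1, Cd79a and Cd79b were higher in mutants without overlap. Cd3e, with means of 1.87 and 1.29 CPM, and Cd3d, with 2.54 and 1.77 CPM, were lower with overlap. The summed level of 8 venous and lymphatic endothelial markers, not plotted, also did not overlap between the groups. It was 1101 to 1245 CPM in controls and 1446 to 1484 CPM in mutants. Lyve1 made up most of it, at 713 ± 50.1 and 968 ± 17.2 CPM, and was called higher (edgeR adjusted p = 0.0166). Of the 7 that were tested, 5 had a fold change above 0, while Prox1 and Slc6a2 were lower without a call. The part of the cells of these lists in the results above was not tested. Of 68 tested markers of epithelial, mesenchymal, myeloid and lymphoid cells edgeR called 0, DESeq2 2 and limma-voom 0, and 8 had an unadjusted p under 0.05 in edgeR. When libraries were scaled to the endothelial markers, Fibin, Clec1a and Tbx2 were again called, and Cyp4b1 as well. Their log2 fold changes were -0.90, -0.67, -0.59 and -0.39. Under this scaling the median log2 fold change over all genes was also lower, at -0.088 against -0.0024 without it. Of the 14 markers, Robo4 was itself called higher and Sox17 lower without this scaling (edgeR adjusted p = 0.0263 and 0.0426).

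**Figure D4:**
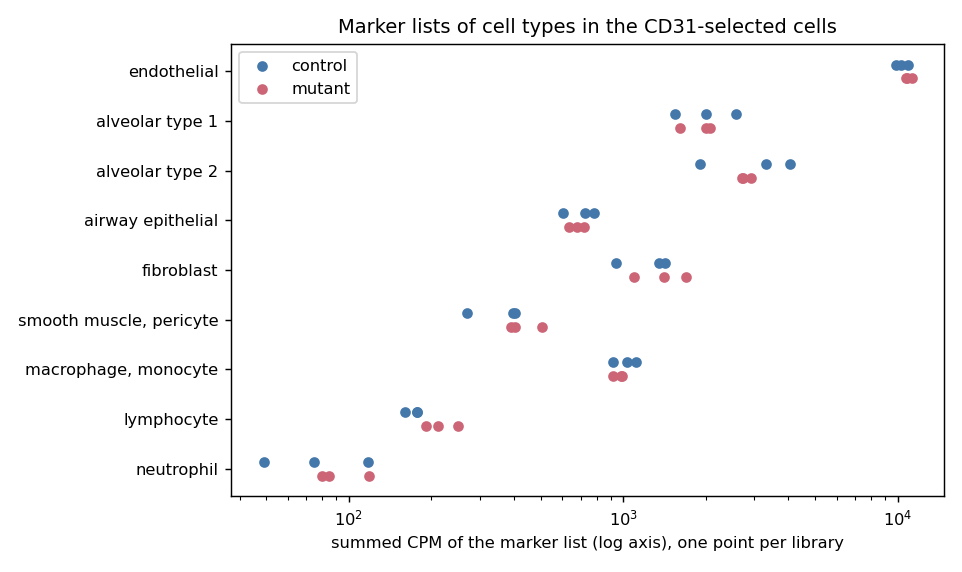
Summed CPM of marker lists of 9 cell types (log axis), 1 point per library. The endothelial list is the highest in each library, and control and mutant libraries overlap in all lists but that of lymphocytes.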

How the data were processed

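The authors deposited raw gene counts, whole numbers of reads per gene symbol, in 1 file for each library and in a joint table, between which 0 values differed. The submitters' processing notes name the build mm10 and, without a role, DESeq2. Aligner, counter, annotation and strand setting: not given in the sources used here. The labels describe independent biological samples, but in a sentence that names HHT mice. The names of all count columns share the same code, and the names do not say what it stands for. Each library had 14093564 to 21113926 reads assigned to genes, and 3 counts correspond to 0.140 to 0.214 CPM. Reads with no feature, 53.9% to 58.2% of each library, and ambiguous reads were left out.

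Counts were tested in R 4.3.3 with edgeR 4.0.16 (filterByExpr, TMM, robust quasi-likelihood F test, two-sided, 3 against 3, no covariate), with DESeq2 1.42.0 and limma 3.58.1 as alternatives. SEs are the log2 fold change divided by the square root of F, and intervals use the moderated degrees of freedom. The fits were tested on simulated data with known changes. Coordinates and exon lengths come from GENCODE M21 (GRCm38, the assembly of mm10). Of 200 symbols on the lists of markers, relatives and partners, 199 matched. The members and lists were chosen with earlier results of these data known. Named genes were the members, the called or most abundant genes of the lists, and the 3 most similar profiles of each called member. The summed level of 1 marker list of another cell type is not reported here.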

Additional observations from a re-analysis of the deposited data

How the results depend on the processing

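Of 150 comparisons of a member with its value under 15 alternatives, 130 kept direction and side of the threshold. The scaling to endothelial markers and the fit of female libraries were chosen after seeing the data. Genes called higher and lower, 288 and 200, became 443 and 311 in DESeq2, 131 to 257 and 80 to 204 without a library, and 209 and 241 when scaled to endothelial markers. The lowest counts, 131 and 80, came without mutant replicate 2. The 3 members called lower became 1 to 3 without a library, 1 of them without mutant replicate 1 or 2, and 1 in the 4 female libraries. Log2 fold changes without a library ran from -0.61 to -0.42 for Tbx2, -0.94 to -0.66 for Fibin, -0.68 to -0.51 for Clec1a, -0.34 to -0.25 for Cyp4b1, -0.42 to -0.13 for Kitl, -0.28 to -0.19 for Sirpa, -0.16 to 0.063 for Emp2, -0.16 to 0.012 for Prx, -0.029 to 0.16 for Car4 and -0.015 to 0.21 for Chst1. Those of Emp2 (0.063 without control replicate 1, 0.019 in the female libraries), Prx (0.012 and 0.0050 without mutant replicates 1 and 3), Car4 and Chst1 changed sign. The call of Tbx2 ended in limma-voom (-0.51), with sex as a covariate (-0.51) and in the female libraries (-0.33), and that of Clec1a in the female libraries (-0.57). Cyp4b1 was called in DESeq2 (-0.30) and when scaled to endothelial markers (-0.39). The main test did not pair libraries by replicate number. Deviations of same-numbered libraries from their group means correlated at -0.0096, 0.019 and 0.16, and those of differently numbered libraries at -0.15 to 0.12. With 3 libraries in each group these values cannot decide whether the numbers pair the libraries. With the replicate block 281 genes were higher and 185 lower, Tbx2 was -0.51 (adjusted p = 0.0870) and no other member's call changed. The cause of these differences was not tested.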
